A study of Mus musculus with 29 samples.

Results

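The genes described here encode interleukin-6 (IL-6) family cytokines, their receptor subunits, the transcription factor STAT3 and its feedback inhibitor SOCS3. The 10 members were chosen by symbol: Lif, Osm, Clcf1, Cntf, Lifr, Osmr, Il6st, Il6ra, Stat3 and Socs3. Each matched 1 row by its Ensembl ID among the 25746 genes counted, and all 10 were among the 17031 genes with enough reads to be tested. RNA sequencing was done on brain tissue of 29 mice aged 3 months, of both sexes, and the stroked mice were sampled 21 days after a photothrombotic stroke to the right sensorimotor cortex. The 3 non-stroked groups held 4 wildtype (WT) C57BL/6J mice, 3 Rag2-/- mice and 4 NSG mice. The 5 stroked groups held 4 WT mice, 3 Rag2-/- mice, 3 NSG mice, 3 WT mice given tacrolimus from day 0 (WT-Tacr acute) and 5 WT mice given tacrolimus from day 7 (WT-Tacr delayed). The Rag2-/- strain has no mature lymphocytes of the T or B lineage. The NSG strain, on a NOD background, is also without natural killer cells. Tacrolimus, a calcineurin inhibitor, was released from an implanted pump, and no group received the drug without stroke or a pump without the drug. The methods give the tissue opposite the lesion as the control RNA while the study's results speak of naïve mice, so these samples are called non-stroked here.

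IL-6 family cytokines share the signal-transducing receptor subunit gp130, encoded by Il6st. Each ligand joins gp130 to a partner, LIFR for LIF and CNTF, OSMR for oncostatin M and the IL-6 receptor alpha chain for IL-6. The complex activates Janus kinases, which phosphorylate STAT3. STAT3 then enters the nucleus and induces genes that include Socs3, whose product binds gp130 and stops the signal. In the injured brain this pathway is known for its part in the reaction of astrocytes.

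Total counts ran from 17789044 to 43403413 per library. The sample names carry a prefix, Imm2 or TF, taken here as 2 cohorts. The 20 Imm2 libraries hold all non-stroked, Rag2-/- and NSG mice, the first 2 stroked WT mice and the first acute mouse. The 9 TF libraries hold the other 2 stroked WT mice, the other 2 acute mice and all 5 delayed mice, at a median total of 23155303 against 37223696 in Imm2. The delayed mice can therefore be set beside non-stroked mice only across cohorts. Neuronal and astrocyte marker genes were present in all groups, and no marker of either list was at 0 in any group. The T cell markers Cd3d, Cd3e, Cd3g and Cd8a were at 0 in all non-stroked NSG libraries, and Cd3d was at 0 in all Rag2-/- libraries, but also in all non-stroked WT libraries. Il2rg, the gene disrupted in NSG mice, was at 0.681 to 1.05 CPM (counts scaled to library size) in non-stroked NSG and 0.716 to 0.871 CPM in non-stroked WT mice, and at 0.784 to 0.979 CPM in stroked NSG and 2.11 to 3.46 CPM in stroked WT mice. Rag2 itself had reads only in stroked WT libraries, at most 2, and cannot check the Rag2-/- label. The summed level of 6 choroid plexus markers ranged from 4.16 to 1580 CPM between libraries.

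Levels can be compared between genes only per length, so they are first given as RPKM, read counts scaled by exon length and library size. In non-stroked WT mice Il6st stood highest at 9.28 ± 0.128 RPKM (SD, n = 4), followed by Lifr at 5.46 ± 0.268, Stat3 at 4.98 ± 0.301, Socs3 at 1.21 ± 0.221, Cntf at 0.84 ± 0.146 and Il6ra at 0.703 ± 0.139. Clcf1 (0.372 ± 0.0725), Osmr (0.328 ± 0.0477), Lif (0.13 ± 0.0371) and Osm (0.033 ± 0.0111) were lower. The ranges of single mice overlapped for the neighbours Lifr and Stat3, Cntf and Il6ra, and Clcf1 and Osmr, so these pairs are not ordered beyond their spread. The order of the 10 mean levels was the same in the non-stroked Rag2-/- and NSG groups.

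In all 5 stroked groups 3 places in that order of mean RPKM changed. Stat3 stood above Lifr, Osmr above Clcf1 and Osm above Lif. In delayed, Rag2-/- and NSG mice Cntf also stood above Socs3. In stroked WT mice Stat3 was at 7.68 ± 1.03 RPKM and Lifr at 4.75 ± 0.729, with no overlap between mice, and Osmr was at 1.22 ± 0.296 against 0.789 ± 0.0911 for Clcf1. Osm at 0.226 ± 0.107 and Lif at 0.187 ± 0.0802 still overlapped. In acute and in NSG mice the ranges of single mice overlapped for all 3 pairs, so there the change holds for the means only. In acute mice Stat3 was at 6.25 ± 1.54 and Lifr at 5.34 ± 1.295 RPKM. Osmr was at 0.703 ± 0.298 and Clcf1 at 0.664 ± 0.412 RPKM, and Osm at 0.129 ± 0.0512 and Lif at 0.119 ± 0.0168 RPKM. All further levels are CPM, for which counts were divided by the library size after TMM normalization, and compare 1 gene between mice.

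**Figure D1:**
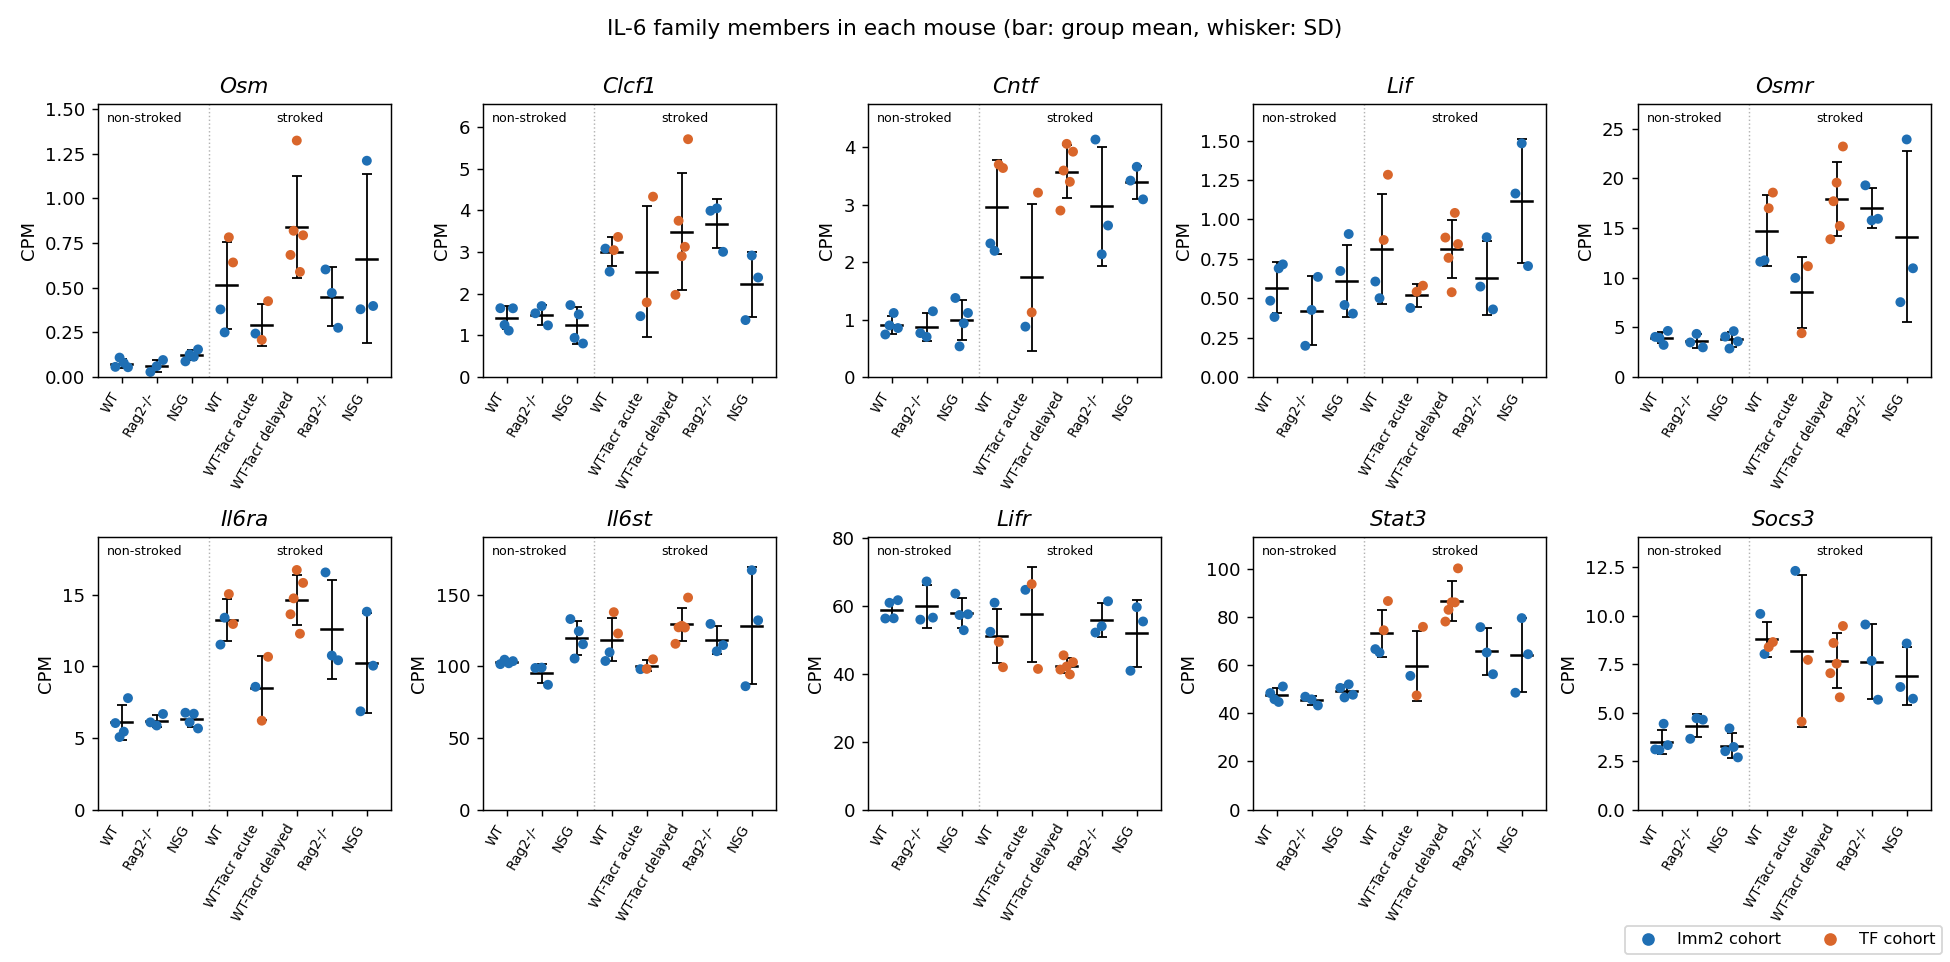
Level of each of the 10 members in each of the 29 mice, in CPM on a linear axis from 0, by group. Points are mice coloured by cohort, bars are group means and whiskers are SD. Every stroked WT mouse lies above every non-stroked WT mouse for 7 members, while Lif, Il6st and Lifr overlap.

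Stroke in WT mice was tested first. A gene passed at a Benjamini-Hochberg adjusted p below 0.05 over all tested genes in edgeR's quasi-likelihood test, and fold changes are given with their SE. Of the 10 members 7 rose (Osm, Osmr, Cntf, Socs3, Il6ra, Clcf1 and Stat3) and none fell. Of all genes tested, 26.9% passed in either direction. The median log2 fold change of the 10 members was 1.1, against -0.000445 over all genes. These 7 members also had no overlap between stroked and non-stroked mice, as did 29.8% of all genes.

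Among the ligands, Osm (oncostatin M, chromosome 11, 4236420 to 4241026) was the member at the lowest level at rest, with 2, 4, 3 and 2 reads in the 4 non-stroked WT libraries, or 0.057, 0.109, 0.0795 and 0.055 CPM. The 4 stroked WT libraries held 15, 9, 18 and 21 reads, or 0.379, 0.25, 0.782 and 0.642 CPM. Every stroked mouse was above every non-stroked mouse, and the 2 TF mice were the higher ones. Osm rose 6.38-fold, a log2 fold change of 2.67 ± 0.49 (edgeR adjusted p = 0.00036). This value comes from the fit of all groups, since Osm was too low to be tested when only stroked and non-stroked WT mice were fitted. From the summed reads alone, 63 against 11, the ratio was 6.37 with an exact 95% interval of 3.33 to 13.4, which covers counting error only.

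Cntf (ciliary neurotrophic factor, chromosome 19, 12763660 to 12765632) was at 0.74, 0.898, 1.11 and 0.852 CPM in non-stroked and at 2.32, 2.20, 3.70 and 3.64 CPM in stroked WT mice. The groups were apart, with the TF mice again higher, and Cntf rose by a log2 fold change of 1.70 ± 0.32 (edgeR adjusted p = 0.000487). In the annotation 78.9% of its exonic bases also belong to exons of Zfp91 on the same strand, so the reads given to Cntf are uncertain. Zfp91 itself had a log2 fold change of -0.16 ± 0.09 in the same comparison (edgeR adjusted p = 0.163).

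Clcf1 (cardiotrophin-like cytokine factor 1, a ligand of the CNTF receptor, chromosome 19, 4214238 to 4223490) was at 1.65, 1.25, 1.11 and 1.65 CPM in non-stroked and at 3.08, 2.53, 3.04 and 3.36 CPM in stroked WT mice. The groups did not overlap and the 2 cohorts lay close together. Its log2 fold change was 1.08 ± 0.32 (edgeR adjusted p = 0.0148). Lif (leukaemia inhibitory factor, chromosome 11, 4257557 to 4272514), which lies close to Osm, did not pass. It was at 0.381 to 0.715 CPM in non-stroked and 0.5 to 1.28 CPM in stroked WT mice, a log2 fold change of 0.51 with a 95% interval of -0.22 to 1.23 (edgeR adjusted p = 0.291).

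Of the 4 receptor subunits, the 2 at the lowest level at rest rose. Osmr (oncostatin M receptor, chromosome 15, 6813577 to 6874969) was at 4.04, 3.95, 3.24 and 4.65 CPM in non-stroked WT mice and at 11.6, 11.8, 17.0 and 18.6 CPM in stroked WT mice, the last 2 values being the TF mice. It rose 3.71-fold, a log2 fold change of 1.89 ± 0.29 (edgeR adjusted p = 6.77e-05), the smallest adjusted p of the members. Il6ra (IL-6 receptor alpha, chromosome 3, 89864059 to 89913196) went from 6.04, 5.06, 5.44 and 7.78 CPM to 11.5, 13.4, 15.04 and 13.0 CPM, a log2 fold change of 1.12 ± 0.19 (edgeR adjusted p = 0.000148). No stroked mouse reached down to a non-stroked one for either subunit.

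The 2 abundant subunits moved little. Il6st (gp130, chromosome 13, 112464070 to 112510086) was at 102 to 105 CPM in non-stroked and 104 to 138 CPM in stroked WT mice, a log2 fold change of 0.20 with a 95% interval of -0.06 to 0.46 (edgeR adjusted p = 0.241). Lifr (chromosome 15, 7090614 to 7197489), on the same chromosome as Osmr, was at 56.3 to 61.7 CPM and 41.9 to 60.9 CPM, a log2 fold change of -0.20 with a 95% interval of -0.46 to 0.06 (edgeR adjusted p = 0.243). For both genes the intervals leave out a change of 1 on the log2 scale in either direction.

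Downstream, Stat3 (chromosome 11, 100885098 to 100939540) was at 48.4, 45.8, 44.7 and 51.1 CPM in non-stroked and at 66.6, 65.2, 74.4 and 86.5 CPM in stroked WT mice. Its rise was 1.54-fold, the smallest among the 7 members that passed, with a log2 fold change of 0.62 ± 0.13 (edgeR adjusted p = 0.00141). Socs3 (chromosome 11, 117966079 to 117970047) was at 3.10, 3.07, 4.43 and 3.33 CPM and at 10.1, 8.03, 8.39 and 8.65 CPM, with the highest value in an Imm2 mouse. It rose 2.52-fold, a log2 fold change of 1.34 ± 0.23 (edgeR adjusted p = 0.000179). Stat3 shares 72 exonic bases with Stat5a and Il6ra 242 with an antisense gene on the opposite strand, and whether counting used the strand is not given.

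STAT dimers bind palindromes of the form TTCNNNGAA, and Socs3 was the 1 member with this motif in the 250 bases before its RefSeq start site (GRCm38.p6), among the 8 members with a promoter in the table used here. Over all genes 8.13% hold it, 2197 of 27025. Of the list of genes described as STAT3 targets, Icam1 and Sbno2 hold it among the 17 with a promoter. Of these genes, levels are given here for Socs3 alone. The windows are shown as 30 bases of the gene's own strand, with the searched letters in capitals.
Socs3, chr11:117969501-117969530, minus strand: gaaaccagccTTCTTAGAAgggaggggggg
Icam1, chr9:21015888-21015917, plus strand: ggcgcgaggtTTCCCGGAAagtggccccga
Sbno2, chr10:80101192-80101221, minus strand: ccggctctgcTTCCCGGAAtgcctgtgagt
Sbno2, other start site, chr10:80102709-80102738, minus strand: gccgcgccccTTCGCAGAAgcggaagtgcg
The motif is its own reverse complement, so 1 strand was searched. In Socs3 its first base lies 154 bases before the start site, in Icam1 42 bases and in Sbno2 24 or 26 bases. A match describes letters in this window and is no evidence of binding.

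Cell type markers moved in the same WT comparison. Of 8 microglia and macrophage markers 7 rose, and their summed level was 187 to 218 CPM in non-stroked and 362 to 460 CPM in stroked mice. Of 6 fibroblast and meningeal markers 4 rose (86.8 to 98 CPM against 275 to 574 CPM), and of 6 neuronal markers 3 fell (6920 to 7690 CPM against 4660 to 6400 CPM). The 6 astrocyte markers summed to 5360 to 6070 and 4970 to 7300 CPM, and 4 of them rose. Of the T cell markers 3 of 4 tested rose (3.47 to 9.71 CPM against 7.14 to 22.2 CPM in sum), of the neutrophil markers 2 of 3 tested rose, and of 4 endothelial markers 2 fell. None of these markers other than Cd3d, in non-stroked WT mice, was at 0 throughout either WT group, and their part in the changes of the members was not tested. The T cell sum is no measure of T cells. It was 3.66 to 35.5 CPM in non-stroked NSG mice, where only Cd4 of the 5 markers had reads. In bulk tissue more cells of a type and more RNA per cell cannot be told apart.

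Within the Imm2 cohort alone, 2 stroked against 4 non-stroked WT mice, 6 of the 7 members passed. Osmr had a log2 fold change of 1.56 there (edgeR adjusted p = 0.00324), Socs3 of 1.38 (0.000563), Cntf of 1.33 (0.00997), Il6ra of 1.04 (0.00789), Stat3 of 0.48 (0.0484) and Osm of 2.02 (0.0365). Clcf1 had 0.99 and an adjusted p of 0.051. Fitting cohort as a covariate over all mice also left these 6.

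**Figure D2:**
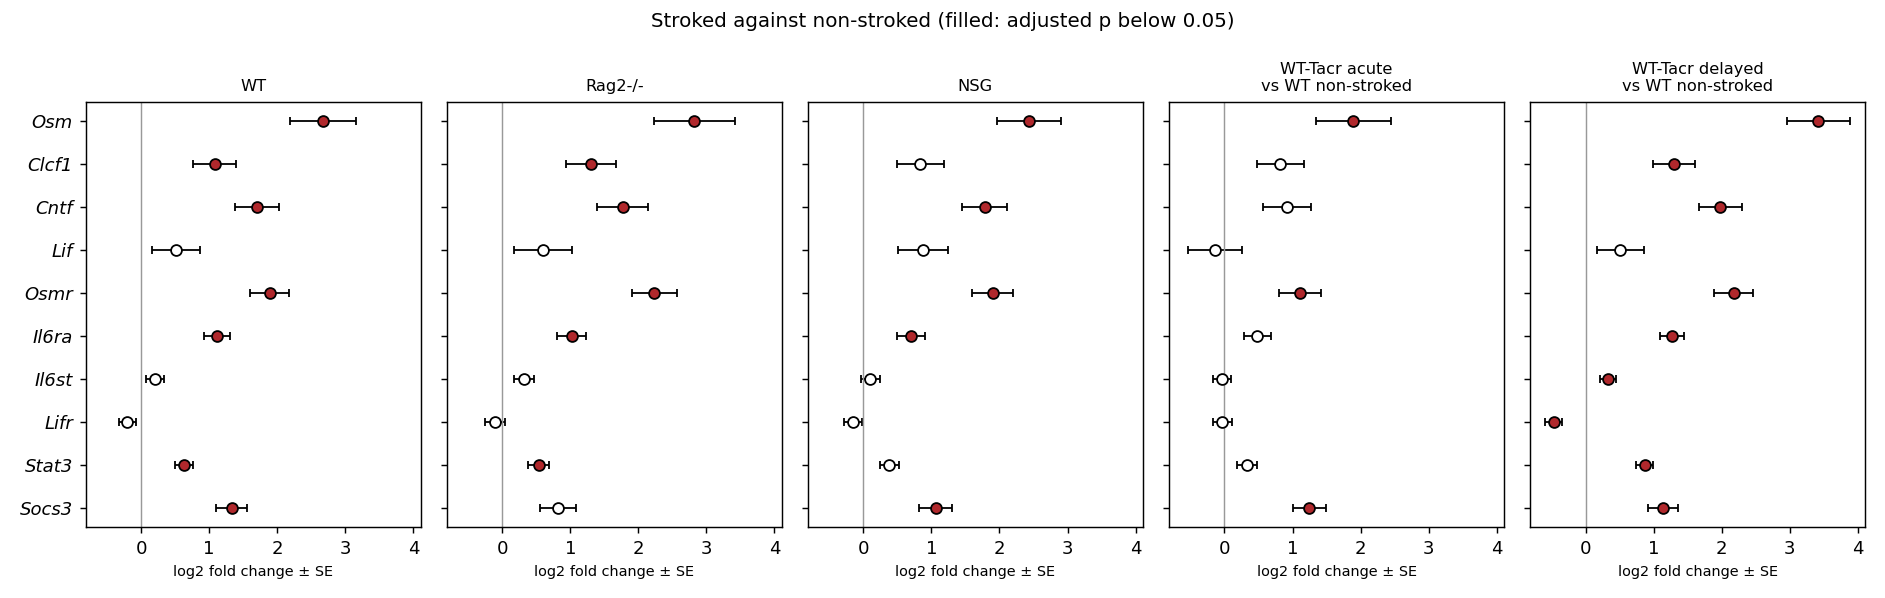
Log2 fold change ± SE of the 10 members (rows) in 5 comparisons (panels) of stroked with non-stroked mice, the tacrolimus groups being set against non-stroked WT mice. Filled points passed an adjusted p of 0.05. Osm and Osmr are filled in all 5 panels, with Osmr at 1.11 in the acute panel and between 1.89 and 2.24 in the others.

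The same question was asked in the 2 immunodeficient strains. In Rag2-/- mice 6 members rose after stroke and none fell, where 8.23% of all genes passed. Osmr was at 3.48, 4.35 and 2.99 CPM in the 3 non-stroked and at 19.3, 15.8 and 15.9 CPM in the 3 stroked Rag2-/- mice. It rose 4.71-fold, a log2 fold change of 2.24 ± 0.34 (edgeR adjusted p = 0.000283), with the groups far apart.

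The ligands Osm, Cntf and Clcf1 also rose in Rag2-/- mice. Cntf (0.765, 0.699 and 1.14 CPM against 4.13, 2.13 and 2.64 CPM) had a log2 fold change of 1.77 ± 0.37 and Clcf1 (1.53, 1.70 and 1.24 CPM against 3.99, 4.05 and 3.003 CPM) of 1.30 ± 0.37 (edgeR adjusted p = 0.00379 and 0.027). Osm had 1, 2 and 3 reads in the non-stroked and 21, 17 and 9 in the stroked libraries. From the sums of 6 and 47 reads the ratio was 7.54 with an exact 95% interval of 3.22 to 21.6 for counting error, and the edgeR adjusted p was 0.00376. Osm was again too low to be tested when only the stroked and non-stroked Rag2-/- mice were fitted.

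Il6ra rose from 6.09, 5.87 and 6.67 CPM to 16.6, 10.8 and 10.4 CPM in Rag2-/- mice (log2 fold change 1.02 ± 0.22, edgeR adjusted p = 0.0039). Stat3 rose from 46.8, 45.7 and 43.2 CPM to 75.7, 65.2 and 56.2 CPM (0.54 ± 0.15, adjusted p = 0.0287). In both genes stroked replicate 1 was the highest and the groups did not overlap. Socs3 just missed, at 3.65, 4.71 and 4.64 CPM against 9.55, 7.68 and 5.67 CPM, with a log2 fold change of 0.82 ± 0.26 (edgeR adjusted p = 0.0514). It passed at fold changes of 0.81 to 0.84 with cohort as a covariate, within Imm2, in the model of these 2 groups and with a minimum mean of 1 CPM (edgeR adjusted p = 0.0297, 0.0201, 0.0213 and 0.0464) and in DESeq2 (adjusted p = 0.0302). Lif, Il6st and Lifr did not pass, at log2 fold changes of 0.60 ± 0.42, 0.32 ± 0.15 and -0.10 ± 0.15 (edgeR adjusted p = 0.452, 0.206 and 0.757).

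The Rag2-/- count rests on few mice. Without stroked replicate 1, which also held 1580 CPM of choroid plexus markers against 8.21 and 11.3 in the other 2, Osm, Cntf and Osmr alone passed. Clcf1 and Stat3 each missed the threshold in 5 of 6 fits that left out 1 mouse. In stroked Rag2-/- mice 8 members had no overlap with the non-stroked mice, as did 35.7% of all genes. Microglia and macrophage markers summed to 221 to 228 CPM in non-stroked and 346 to 439 CPM in stroked Rag2-/- mice, with 5 of 8 higher. Of the fibroblast and meningeal markers 4 of 6 rose (92.7 to 112 CPM against 313 to 323 CPM) and of the astrocyte markers 3 of 6. Their part was not tested.

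In NSG mice 5 members rose and none fell, where 21.9% of all genes passed. Osmr was at 4.07, 2.87, 4.62 and 3.59 CPM in the 4 non-stroked NSG mice and at 7.54, 23.9 and 10.95 CPM in the 3 stroked NSG mice. Stroked replicate 2 was the highest of all 29 mice for Osmr, and the lowest, replicate 1, was still above the non-stroked range. The log2 fold change was 1.90 ± 0.30 (edgeR adjusted p = 0.000156).

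Cntf rose in NSG mice from 1.38, 0.533, 0.935 and 1.11 CPM to 3.42, 3.66 and 3.09 CPM, with little spread among stroked mice (log2 fold change 1.78 ± 0.34, edgeR adjusted p = 0.000777). Osm rose from 3, 5, 4 and 5 reads to 15, 49 and 13 reads, a log2 fold change of 2.43 ± 0.47 (edgeR adjusted p = 0.000863), with replicate 2 again the highest at 1.21 CPM. Socs3 rose from 3.01, 4.19, 3.23 and 2.69 CPM to 6.33, 8.57 and 5.72 CPM (1.07 ± 0.24, edgeR adjusted p = 0.00328). These 3 genes, Osmr and Il6ra, 5 members in all, did not overlap between the groups, as did 25% of all genes.

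Il6ra had a log2 fold change of 0.70 ± 0.20 in NSG mice (edgeR adjusted p = 0.0145). It went from 5.66 to 6.76 CPM to 6.86, 13.8 and 10.04 CPM, so that the lowest stroked mouse lay next to the highest non-stroked one. Without replicate 2 the value was 0.41 and the adjusted p 0.139. Stat3 did not pass at 46.5 to 52.0 CPM against 48.5, 79.5 and 64.5 CPM (0.38 ± 0.14, edgeR adjusted p = 0.0537), but did without replicate 1 (0.54, edgeR adjusted p = 0.0112), with cohort as a covariate (0.38, 0.0376) and within Imm2 (0.38, 0.0441). Lif (0.88 ± 0.36), Clcf1 (0.84 ± 0.34), Il6st (0.10 ± 0.14) and Lifr (-0.15 ± 0.14) did not pass. Of these, Clcf1 passed within Imm2 (0.83, edgeR adjusted p = 0.0407). Lif passed without stroked replicate 3 (1.105, edgeR adjusted p = 0.0365) and without non-stroked replicate 3 (1.13, 0.0474). Among markers 7 of 8 microglia and macrophage genes rose in NSG mice (all non-stroked sums lay below the stroked ones, which were 369 to 509 CPM), and 5 of 6 fibroblast and meningeal genes (105 to 188 CPM against 208 to 1040 CPM), and their part was not tested.

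Whether the strains differed in their response was tested as the stroke change in each strain minus the change in WT mice. None of the 10 members passed for Rag2-/- or for NSG mice, and none had an unadjusted p below 0.05 in edgeR or in DESeq2. Over all genes 0% passed for Rag2-/- and 0.0294% for NSG mice in edgeR, while 713 and 2167 genes had an unadjusted p below 0.05 and DESeq2 called 0 and 138. Osmr differed by 0.35 on the log2 scale in Rag2-/- mice (95% interval -0.54 to 1.23) and by 0.01 in NSG mice (-0.83 to 0.86). Stat3 differed by -0.09 (-0.50 to 0.33) and -0.24 (-0.64 to 0.16). The farthest from 0 were Socs3 in Rag2-/- mice at -0.52 (-1.22 to 0.19) and Il6ra in NSG mice at -0.42 (-0.98 to 0.14). The intervals for Osm were the widest, at -1.44 to 1.74 in Rag2-/- and -2.03 to 1.55 in NSG mice, with SE of 0.77 and 0.66. All 20 intervals include 0, so a difference between strains was not detectable with these numbers of mice, which does not show that the responses were alike. These values set strains held in Imm2 alone beside stroked WT mice of both cohorts. Within Imm2, with 2 stroked WT mice, Osmr differed by 0.68 in Rag2-/- and by 0.34 in NSG mice. Stat3 differed there by 0.07 and -0.10 and Osm by 0.82 and 0.41, and no member passed.

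At rest none of the 10 members differed between NSG and WT mice, where 9.76% of all genes did, nor between Rag2-/- and WT mice, where 0.00587% did. None had an unadjusted p below 0.05 in edgeR or DESeq2. Il6st was the 1 member whose groups did not overlap in both comparisons. It was at 106 to 133 CPM in non-stroked NSG and 87.2 to 99.2 CPM in non-stroked Rag2-/- mice against 102 to 105 CPM in WT mice, with log2 fold changes of 0.22 ± 0.13 and -0.12 ± 0.14 (edgeR adjusted p = 0.331 and 1). Of all genes 21.8% and 9.44% did not overlap in the 2 comparisons.

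Among the mice given tacrolimus from day 0 the values of several members were uneven. Against non-stroked WT mice 3 members rose (Osm, Osmr and Socs3) and none fell, where 8.54% of all genes passed. Osmr was at 9.98, 4.41 and 11.2 CPM in acute replicates 1, 2 and 3, and replicate 2 lay inside the non-stroked WT range. Socs3 was at 12.3, 4.54 and 7.73 CPM, so that replicate 1, the Imm2 mouse, had the highest Socs3 of all mice and replicate 2 lay just above the non-stroked range. Osm was at 0.243, 0.208 and 0.425 CPM, all above the non-stroked mice. Osm and Socs3 had no overlap with the non-stroked mice, as did 19.6% of all genes.

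The log2 fold changes were 1.89 ± 0.55 for Osm, 1.11 ± 0.30 for Osmr and 1.24 ± 0.24 for Socs3 (edgeR adjusted p = 0.0357, 0.0285 and 0.00532). Of the other ligands Lif was even, at 0.438, 0.541 and 0.579 CPM, and 2 were uneven, with Cntf at 0.876, 1.12 and 3.21 CPM and Clcf1 at 1.46, 1.79 and 4.33 CPM, as was Stat3 at 55.5, 47.4 and 75.8 CPM. Replicate 3 alone stood above the non-stroked mice by a wide margin. Their log2 fold changes of 0.92 ± 0.35 and 0.82 ± 0.34 did not pass (edgeR adjusted p = 0.0914 and 0.123). Nor did those of Il6ra (0.48 ± 0.20), Stat3 (0.33 ± 0.14), Lif (-0.14 ± 0.40), Il6st (-0.04 ± 0.14) and Lifr (-0.03 ± 0.14).

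Without acute replicate 3 only Socs3 passed (log2 fold change 1.28, edgeR adjusted p = 0.0365), and without acute replicate 1 there were 5 members that did. Leaving out non-stroked WT replicate 1, 3 or 4 also left Socs3 alone, and leaving out replicate 5 left Socs3 and Osmr. With cohort as a covariate, and within Imm2, where the acute group is the 1 mouse replicate 1 and is assumed to vary like the other groups, Socs3 alone passed, at log2 fold changes of 1.495 and 1.83 (edgeR adjusted p = 0.00734 and 0.0049). When the model held no other mice than these 2 groups, none of the 9 members tested did, Osm being too low for that fit. Of all genes 35 passed in that fit and 52 with cohort as a covariate. The markers were as uneven. Lcn2 was at 0.167 CPM in the lowest acute mouse, inside the non-stroked WT range of 0.0272 to 0.292 CPM, and at 67.2 CPM in the highest. In acute replicates 1, 2 and 3 the microglia and macrophage markers summed to 237, 249 and 418 CPM, against 187 to 218 CPM in non-stroked WT mice. The fibroblast and meningeal markers summed to 113, 89.8 and 368 CPM, against 86.8 to 98 CPM. Replicate 2 thus lay inside the non-stroked WT range for this sum, as it did for Osmr. The part of these differences between mice in the members' values was not tested.

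Tacrolimus from day 7 was tested next. Against non-stroked WT mice 8 members rose and 1, Lifr, fell, while 55.2% of all genes passed. Osmr was at 13.9, 17.7, 19.6, 15.2 and 23.2 CPM in the 5 delayed mice, and rose 4.51-fold, a log2 fold change of 2.17 ± 0.28 (edgeR adjusted p = 1.77e-06). Stat3 was at 78.0, 82.9, 86.0, 86.0 and 100.1 CPM and rose 1.83-fold, by 0.87 ± 0.13 on the log2 scale (edgeR adjusted p = 7.63e-06). All 5 mice were above all non-stroked WT mice for both genes.

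Osm was at 0.684, 0.819, 1.32, 0.589 and 0.794 CPM in the delayed mice, and Cntf at 2.90, 3.59, 4.06, 3.40 and 3.92 CPM. Their log2 fold changes were 3.42 ± 0.46 and 1.98 ± 0.31 (edgeR adjusted p = 3.06e-06 and 1.69e-05). Lifr was at 41.2, 45.4, 42.1, 39.8 and 43.4 CPM, below all non-stroked WT mice, and fell by 0.47 ± 0.12 on the log2 scale (edgeR adjusted p = 0.00196). Il6st rose by 0.33 ± 0.12 (adjusted p = 0.0249), Il6ra by 1.27 ± 0.18 (5.35e-06), Clcf1, at 1.97, 3.75, 2.90, 3.12 and 5.70 CPM, by 1.30 ± 0.31 (0.00113) and Socs3 by 1.14 ± 0.22 (0.000144), while Lif at 0.51 ± 0.34 did not pass.

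In this comparison 9 members did not overlap between groups, as did 54% of all genes. Of the markers 7 of 8 microglia and macrophage genes, 5 of 6 fibroblast and meningeal genes, 4 of 4 tested T cell genes, 3 of 3 tested neutrophil genes, 4 of 6 astrocyte genes and 3 of 6 subcortical neuron genes were higher in delayed mice, and 4 of 6 neuronal genes were lower. Their part was not tested. All delayed mice are TF and all non-stroked mice Imm2, so that cohort and group cannot be told apart from these values alone. With cohort as a covariate, which stroked WT and acute mice of both cohorts allow, 5 members passed, as did 1533 of all genes. Osmr kept a log2 fold change of 1.95 (edgeR adjusted p = 0.00503), Osm of 2.54 (0.0113), Il6ra of 1.18 (0.00841), Stat3 of 0.63 (0.0305) and Socs3 of 1.61 (0.00317), while Lifr was at -0.18 (0.554), Il6st at 0.14 (0.689), Clcf1 at 0.77 (0.298) and Cntf at 1.07 (0.0914).

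The stroked groups were then compared directly. Between acute and untreated stroked WT mice no member passed, and 0% of all genes did in edgeR, with 2168 genes at an unadjusted p below 0.05 and 2 called by DESeq2. Of the 10 fitted differences 9 were negative, and 4 had an unadjusted p below 0.05 in edgeR (3 in DESeq2). Il6ra differed by -0.64 on the log2 scale (95% interval -1.06 to -0.22, edgeR adjusted p = 0.311), Osmr by -0.78 (-1.40 to -0.16, adjusted p = 0.315), Cntf by -0.78 (-1.48 to -0.08, adjusted p = 0.345) and Stat3 by -0.30 (-0.59 to -0.000896, adjusted p = 0.391). Osmr and Il6ra had no overlap, as did 6.29% of all genes. Without acute replicate 3, the mouse with the highest Cntf, Clcf1 and Stat3 of its group, 3 members were lower, Cntf at -1.56, Il6ra at -0.82 and Stat3 at -0.50 (edgeR adjusted p = 0.00433, 0.025 and 0.0345), and 1437 of all genes passed.

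Between delayed and untreated stroked WT mice no member passed either, with 0% of all genes passing in edgeR, 3455 genes at an unadjusted p below 0.05 and 47 called by DESeq2. Lifr was the 1 member at an unadjusted p below 0.05, with a log2 difference of -0.27 (95% interval -0.52 to -0.02, edgeR adjusted p = 0.22). Osm differed by 0.75 (-0.01 to 1.51), Stat3 by 0.24 (-0.02 to 0.50) and Osmr by 0.28 (-0.25 to 0.82). The delayed mice are all TF, while the untreated stroked WT mice are of both cohorts. Within TF the log2 differences were smaller, at -0.10 for Lifr, 0.26 for Osm, 0.11 for Stat3 and 0.01 for Osmr. All 10 members overlapped between these groups, where 4.23% of all genes did not.

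**Figure D3:**
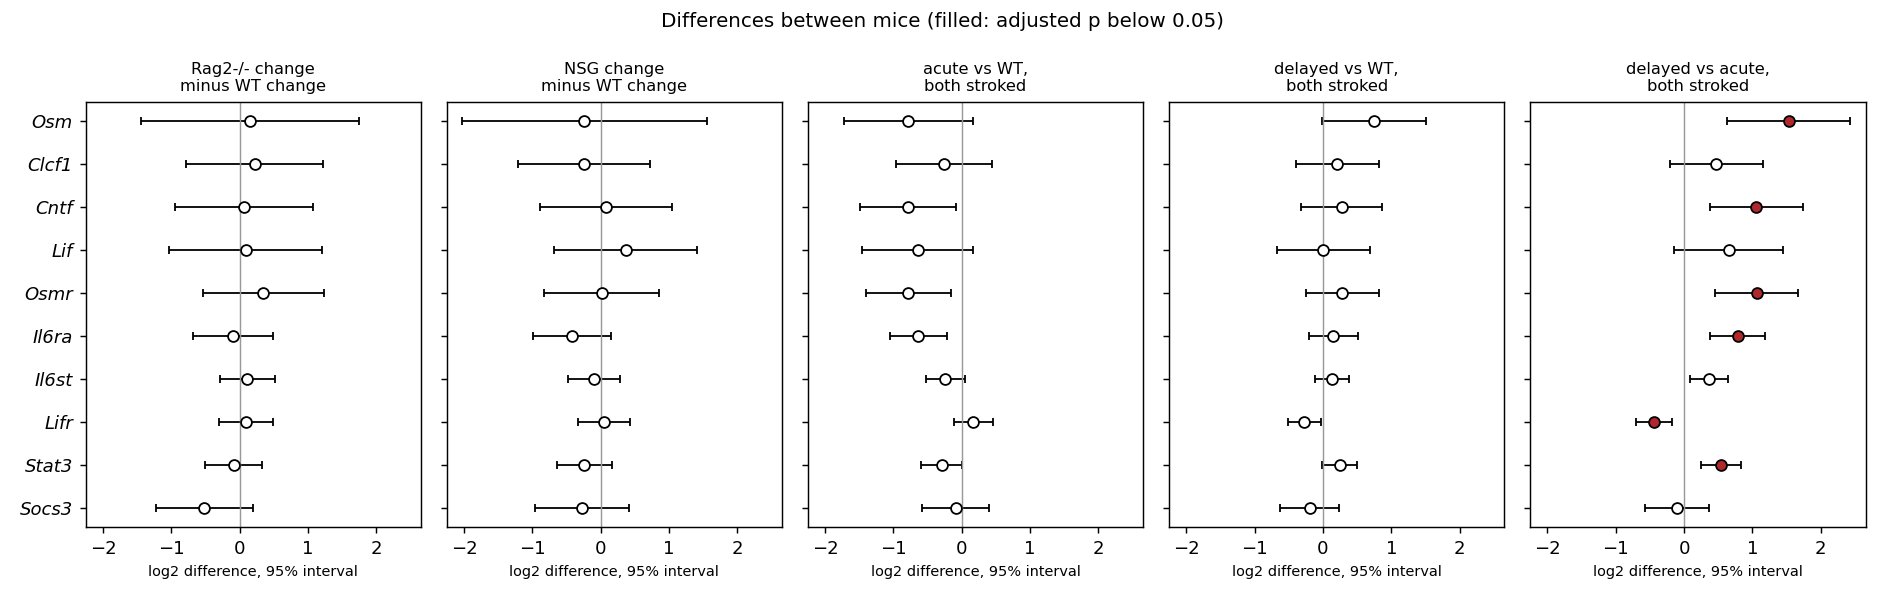
Difference of the 10 members (rows) on the log2 scale, with 95% intervals, for the stroke change in Rag2-/- and NSG mice minus that in WT mice and for 3 direct comparisons of stroked mice (panels). Filled points passed an adjusted p of 0.05 and are found in the panel of delayed against acute tacrolimus alone, where Osm is at 1.53 and Lifr at -0.44.

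Delayed against acute tacrolimus was the 1 direct comparison in which members passed, 5 higher (Osm, Osmr, Cntf, Il6ra and Stat3) and 1 lower (Lifr) in the delayed mice, where 20.3% of all genes passed. The log2 differences were 1.53 ± 0.44 for Osm, 1.07 ± 0.30 for Osmr, 1.06 ± 0.33 for Cntf, 0.79 ± 0.20 for Il6ra, 0.54 ± 0.14 for Stat3 and -0.44 ± 0.13 for Lifr (edgeR adjusted p = 0.0186, 0.0162, 0.0277, 0.0123, 0.0131 and 0.0213). Socs3 did not pass, at 7.04, 8.60, 7.53, 5.79 and 9.47 CPM in the delayed mice against the spread of 4.54 to 12.3 CPM in the acute mice (-0.10, 95% interval -0.57 to 0.37). Lif, Clcf1 and Il6st did not pass either, at 0.65 ± 0.39, 0.47 ± 0.33 and 0.37 ± 0.13 (edgeR adjusted p = 0.233, 0.313 and 0.0524). Il6st did pass in DESeq2 (adjusted p = 0.039) and with a minimum mean of 1 CPM (edgeR adjusted p = 0.048). Osm, Osmr, Il6st, Il6ra and Stat3 had no overlap between the 2 groups, as did 17.8% of all genes.

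These 6 calls depend on the fit. Within the TF cohort, 5 delayed against 2 acute mice, none passed, with the same signs and edgeR adjusted p between 0.159 and 0.211, nor did any when these 2 groups were fitted alone. With cohort as a covariate Il6ra (0.75, edgeR adjusted p = 0.0357) and Stat3 (0.46, 0.0435) passed, as did 1583 of all genes. None passed without acute replicate 1 or without replicate 2, and 7 did without replicate 3. In each of these 4 fits in which no member passed, 0 of all genes tested passed either, so the loss was not particular to the members. Within TF the log2 differences were 1.42 for Osm, 1.22 for Osmr, 0.82 for Il6ra and 0.52 for Stat3. The delayed mice also had more microglia and macrophage marker RNA (448 to 565 CPM against 237 to 418 CPM, 7 of 8 genes higher), more of 5 of 6 fibroblast and meningeal markers (356 to 1290 CPM against 89.8 to 368 CPM in sum), more of 3 of 6 choroid plexus markers (11.7 to 851 CPM against 4.16 to 18.4 CPM) and less of 4 of 6 neuronal markers (4290 to 5100 CPM against 5430 to 7620 CPM). Their part in the members' differences was not tested.

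The members' patterns were compared over all 29 mice by Pearson's r of log2 CPM (prior count 2), as a description in which the points share groups and cohorts. Osmr went most closely with Il6ra (r = 0.945) and Stat3 (0.92), and Il6ra with Stat3 (0.938). After the group means were removed these values were 0.774, 0.86 and 0.798. Among all tested genes those most like Osmr were Ifi207 (0.973), Flnc (0.971), Lilr4b (0.97), Cyp1b1 (0.966) and Cybb (0.966). Stat3 went most closely with Tlr4 (0.977), Plxnb2 (0.973), Abca1 (0.967), B4galt1 (0.967) and Tln1 (0.964). The genes most like Socs3 were less close, Pnpla2 (0.901), Ada (0.882), Klf15 (0.88), Arrdc2 (0.878) and Ifi204 (0.877), with values between 0.447 and 0.655 after the group means were removed.

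The rest of the pathway was described by 6 lists of 43 genes, of which 41 were tested. Il6 and Il27 did not pass the filter on low counts, with 0 to 5 and 0 to 6 reads per library. Il6 had 1 to 2 reads in non-stroked and 2 to 3 in stroked WT libraries, so no change in it was detectable at this depth. Across the lists, 16 of 41 genes rose and 4 fell after stroke in WT mice, where 26.9% of all genes passed in either direction. The median log2 fold change of the 41 genes was 0.18. The counts per list given below for WT mice stand beside the same share of all genes.

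Among the other ligands and cofactors 1 of 4 tested rose in WT mice. This was Ebi3, the subunit shared by IL-27 and IL-35, at 0.787 ± 0.093 CPM in non-stroked and 1.54 ± 0.242 CPM in stroked mice (SD, n = 4), with a log2 fold change of 0.97 ± 0.24 (edgeR adjusted p = 0.00514). Ebi3 rose also in Rag2-/- (1.06), NSG (0.96) and delayed mice (0.74). Of 3 further receptor subunits Il11ra1 rose in WT (0.42 ± 0.14, edgeR adjusted p = 0.0261), NSG (1.07) and delayed mice (0.81) and was lower in non-stroked NSG than WT mice (-1.45 ± 0.14, adjusted p = 4.82e-08). Il11ra1 has near-identical copies in the mouse genome, so that its counts are uncertain.

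Of the 4 kinases and adaptors Jak1 fell in WT mice from between 192 and 209 CPM to between 163 and 176 CPM (-0.25 ± 0.06, edgeR adjusted p = 0.00373), and Ptpn11, which encodes the phosphatase and adaptor SHP2, rose (0.29 ± 0.09, adjusted p = 0.0166). Jak2 and Tyk2 did not pass. Of the 5 other STAT genes 3 rose, among them Stat5a (0.77 ± 0.25) and Stat6 (0.42 ± 0.16), with edgeR adjusted p of 0.0245 and 0.0461. In NSG mice Stat5a and Stat6 rose and in Rag2-/- mice none of the 5 did, where 21.9% and 8.23% of all genes passed. Of 5 further inhibitors Socs1 fell in WT mice (-0.86 ± 0.31, edgeR adjusted p = 0.0401) and none rose, beside the rise of Socs3. Socs1 was low, with means of 0.61 CPM in non-stroked and 0.333 CPM in stroked WT mice. Its means were 0.473 and 0.468 CPM in Rag2-/- mice and 0.519 and 0.569 CPM in NSG mice. In NSG mice 1 of the 5 inhibitors rose and 1 fell.

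The list of 20 genes described as STAT3 targets was taken from general knowledge and holds many genes that astrocytes and other cells express in any injury. In WT mice 10 rose and 2 fell, with a median log2 fold change of 0.47. Gfap, the intermediate filament of astrocytes, rose from 143 ± 31.3 to 969 ± 169 CPM (2.77 ± 0.33, edgeR adjusted p = 1.14e-05). Vim, another filament gene, rose from 22.3 ± 2.69 to 166 ± 53.6 CPM and Serpina3n, a protease inhibitor, from 17.8 ± 1.23 to 147 ± 54.6 CPM (adjusted p = 3.92e-05 and 3.83e-05). Lcn2, which encodes the iron-binding lipocalin 2, was at 0.142 ± 0.135 and 60.4 ± 37.5 CPM (adjusted p = 1.61e-05).

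The 2 targets that fell in WT mice were the immediate early genes Fos (-1.44 ± 0.41) and Junb (-1.10 ± 0.29), whose groups overlapped (edgeR adjusted p = 0.0114 and 0.00811). In the other comparisons 9 of the 20 rose and 1 fell in Rag2-/- mice, 13 rose and 1 fell in NSG mice, 9 rose and none fell in acute mice, and 11 rose and 2 fell in delayed mice. The shares of all genes that passed in these comparisons were 8.23%, 21.9%, 8.54% and 55.2%, and 26.9% in WT mice, so that the share of targets in delayed mice lay near that of all genes. Bcl3, Timp1, A2m, Icam1, Gfap, Vim, Serpina3n and Lcn2 passed in all 5. These 5 comparisons are not independent, since 3 of them share the non-stroked WT mice. The acute mice were uneven here too, with Gfap at 189 to 928 CPM and Vim at 27.6 to 194 CPM. Serpina3n was at 12.3 to 146 CPM, its lowest acute mouse lying below the non-stroked WT range of 16.8 to 19.4 CPM. Of all genes only 37 passed for acute mice without acute replicate 3, and 52 with cohort as a covariate. Between delayed and acute mice 5 of the 20 targets were higher in delayed mice, where 20.3% of all genes passed. Among the 5 were Gfap (1.33 ± 0.34), Vim (1.43 ± 0.42) and Serpina3n (1.59 ± 0.44), with edgeR adjusted p of 0.0127, 0.0201 and 0.0155. For this comparison no gene passed within TF, in the fit of the delayed and acute groups alone, or without acute replicate 1 or 2. In non-stroked NSG against WT mice Serpina3n was higher (1.43 ± 0.41) and Fos lower (-1.47 ± 0.41), with edgeR adjusted p of 0.0244 and 0.0199. No target passed for the strain differences in response or between either tacrolimus group and untreated stroked WT mice.

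**Figure D4:**
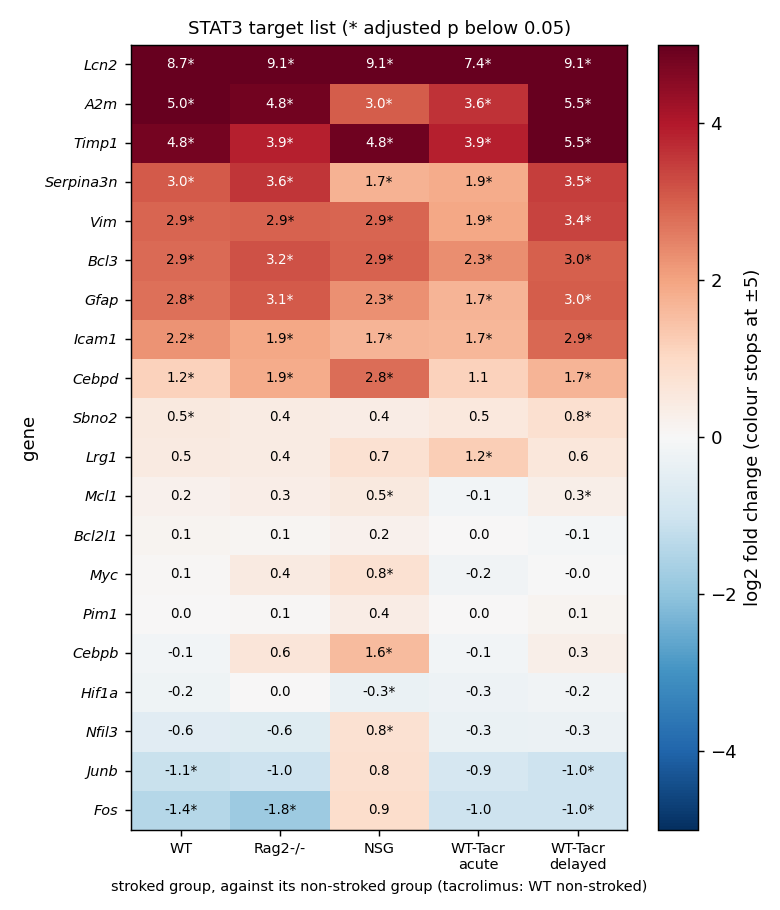
Log2 fold change of the 20 genes described as STAT3 targets (rows, ordered by the WT value) in stroked against non-stroked mice of 5 groups (columns). Red is higher and blue lower, the colour stops at 5, and a star marks an adjusted p below 0.05. The upper 8 rows carry a star in every column, and Fos and Junb are blue in all columns other than NSG, where neither passed.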

How the data were processed

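RNA of brain tissue from 29 mice was sequenced as polyA-selected stranded libraries, and reads were aligned and counted at a core facility. The deposited values are raw counts of reads per gene, 1 file per mouse, made by the authors without normalization. The aligner, genome build and use of strand in counting are not given in the sources used here. Groups were taken from the sample labels, and the titles of 2 samples, rather than their file names, were followed where these differed. Positions and exon lengths are those of GENCODE M21 (GRCm38), which held 25635 of 25746 IDs.

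Tests used the quasi-likelihood method of edgeR 4.0.16 under R 4.3.3, with TMM scaling and filterByExpr by group, in 1 fit of 8 groups, two-sided, in 12 comparisons, each adjusted by Benjamini-Hochberg over 17031 genes. The SE is the log2 fold change divided by the square root of F, and 95% intervals were scaled to the test's own p. The script was tested on simulated data. Alternatives were RLE normalization, no filter or a mean of at least 1 CPM, DESeq2 1.42.0, a cohort term, fits inside a single cohort or of the groups compared, a minimum log2 fold change of 1, a replicate block and leaving out each mouse. Groups of 3 to 5 mice limit precision, as does depth for Osm, at 1 to 49 reads, and Lif, at 7 to 60 reads per library.

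The members and the gene lists were chosen with earlier results of these data known. All 10 members were tested in every comparison. Values of each were given for every stroked group against non-stroked mice and for delayed against acute mice. Those of some members only were given in the other comparisons. Of each pathway list counts were given, with values for at most 4 genes with the smallest adjusted p after stroke in WT mice, and the 5 genes most like Osmr, Stat3 and Socs3 were named. Clcf1 shares 8.17% and Cntf 78.9% of exonic bases with another gene on the same strand. Fos, Junb, Bcl3, Timp1, A2m and Icam1 were named after their values were seen. No protein sequences were used here. The values of 2 genes of the pathway lists are not reported here.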

Additional observations from a re-analysis of the deposited data

How the results depend on the processing

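Of the 12 counts of members that passed, those for stroke in WT, Rag2-/- and NSG mice and for the 2 differences of response stayed within 1.5 times under RLE normalization, both other filters, DESeq2, the cohort covariate, the fits within Imm2 and the fits of the groups compared. With cohort as a covariate the count fell from 3 to 1 for acute and from 9 to 5 for delayed against non-stroked WT mice, and from 6 to 2 for delayed against acute mice. The counts over all genes fell as well, from 1454 to 52, from 9393 to 1533 and from 3465 to 1583. In fits of the groups compared it was 0 for acute against non-stroked, with Osm not tested, and 0 for delayed against acute mice, within Imm2 it was 1 for acute against non-stroked mice, and within TF it was 0 for delayed against acute mice. In fits of the groups compared Osm was also not tested for stroke in WT and Rag2-/- mice or in the resting comparisons. A minimum log2 fold change of 1 left 3 for delayed against acute mice. The cause of these losses was not tested, beside fewer mice in the smaller fits. Leaving out each mouse in turn gave 7 to 7 members for stroke in WT, 3 to 7 in Rag2-/-, 4 to 6 in NSG, 1 to 5 in acute and 8 to 9 in delayed mice, 0 to 3 for acute against untreated, 0 to 7 for delayed against acute mice, and 0 to 0 for the other comparisons. Non-stroked mice carry numbers that could pair them, but mice of the same number did not deviate together (r = -0.233, 0.118 and -0.154 for NSG with WT, and 0.107 over only 2 pairs for Rag2-/-). With the replicate block on the mice that share a number 0 members passed in either resting comparison, and without the block on the same mice 1 did for NSG, Il6st at 0.28 (edgeR adjusted p = 0.0481). The fold changes of single members under all alternatives gave 1919 values on the same side of the threshold, 23 newly past it and 75 no longer past it, and no called value changed sign. Sign changes of values past the threshold in neither fit were not counted. Depth limits Osm, Il6 and Il27, whose reads number under 10 in most non-stroked libraries.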
